A study of Mus musculus with 22 samples.

Results

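Embryoid bodies grown with 100 nM tetrabromobisphenol A (TBBPA), a brominated flame retardant, were compared with embryoid bodies grown with the solvent dimethyl sulfoxide (DMSO) over 5 days of culture. The comparison takes 15 of the 22 RNA libraries of the study, chosen by the treatment and day in their labels. Of these, 5 were labelled 100 nM TBBPA, 1 for each of days 4, 9, 12, 18 and 28 (written D4 to D28), and 10 were labelled 0.1% DMSO, 2 at each of those days. All 15 came from J1, a line of mouse embryonic stem (ES) cells that both groups share. The study also holds 5 libraries with 10 nM TBBPA, used below for the comparison of doses, and 2 of untreated ES cells, which enter only an alternative fit. The labels give neither the time at which exposure began nor the solvent content of the TBBPA cultures. Nor do they say whether the days, or the 2 DMSO libraries of a day, were separate cultures. The spread behind each p-value is therefore that between these libraries and may be technical.

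Embryoid bodies are aggregates of ES cells that, once the conditions of self-renewal are withdrawn, form a disordered mixture of derivatives of all germ layers. Ectoderm gives rise to neural progenitors, in which SoxB factors such as Sox1 are active, and Notch signalling sets how many of them leave the cycle as neurons under proneural basic helix-loop-helix (bHLH) factors. Mesoderm gives rise to muscle, endothelium, blood and matrix-producing fibroblasts, and endoderm to yolk sac and gut epithelium. Bone morphogenetic protein (BMP) and transforming growth factor beta (TGF-beta) signals are known to favour several of the non-neural fates and to oppose the neural one. TBBPA is a bisphenol that has been studied as a ligand of PPAR gamma and as a disruptor of thyroid hormone signalling.

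Across the 15 libraries, the total of estimated counts was 18158583 to 18819287 and 16728 to 17816 genes were listed. Defining markers of the labelled material were present: between D4 and D28 the pluripotency factor Pou5f1 (Oct4) went from 812 and 843 to 89.7 and 83.7 CPM in the DMSO libraries, while the yolk sac protein Afp reached 372, the neuronal tubulin Tubb3 231 and the cardiac myosin Myh6 70.2 CPM in their highest DMSO libraries. Levels are given as CPM, counts scaled to the TMM size of each library. Per gene, the chi-square between the counts of the 2 DMSO libraries of a day averaged 1.63 to 3.38, where 1 is counting noise. Between the 100 nM library and a DMSO library of its day it averaged 6.3 to 21.1, so the DMSO pairs differed less from each other than from the treated library at every day.

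Transcription factors with known short binding sequences stand behind several of the cell types described here, and the start regions of 5 genes that changed with 100 nM TBBPA are printed to show what such sites look like. Proneural and myogenic bHLH factors bind E-boxes, of which CAGCTG is one form (the same on both strands), and HNF1 factors of yolk sac and liver bind a palindrome that holds GTTAAT. The capitals mark these letters, searched on both strands. Each run is the RefSeq sequence of GRCm38.p6 from 250 bases before to 50 bases after the gene's start, on the coding strand, and the genes were picked after their values were seen. The neuronal RNA-binding protein gene Elavl3 (chr9:22051974-22052273, minus strand), the Notch ligand gene Dll1 (chr17:15376883-15377182, minus strand) and the fast muscle myosin light chain gene Myl1 (chr1:66945007-66945306, minus strand) are shown for the E-box. The yolk sac genes Afp (chr5:90490464-90490763, plus strand) and Apoc2 (chr7:19677892-19678191, minus strand) are shown for the HNF1 letters.
Elavl3: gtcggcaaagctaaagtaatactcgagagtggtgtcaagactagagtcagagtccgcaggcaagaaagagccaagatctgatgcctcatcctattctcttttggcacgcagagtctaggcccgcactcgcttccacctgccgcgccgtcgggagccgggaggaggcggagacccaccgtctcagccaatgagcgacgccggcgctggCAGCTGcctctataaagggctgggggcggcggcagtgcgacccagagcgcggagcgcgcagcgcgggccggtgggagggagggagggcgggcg
Dll1: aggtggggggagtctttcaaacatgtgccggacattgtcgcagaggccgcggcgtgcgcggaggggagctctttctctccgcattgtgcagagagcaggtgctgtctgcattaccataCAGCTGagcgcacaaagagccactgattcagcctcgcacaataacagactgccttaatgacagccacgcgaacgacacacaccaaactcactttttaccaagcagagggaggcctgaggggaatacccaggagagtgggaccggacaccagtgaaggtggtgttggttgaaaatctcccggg
Myl1: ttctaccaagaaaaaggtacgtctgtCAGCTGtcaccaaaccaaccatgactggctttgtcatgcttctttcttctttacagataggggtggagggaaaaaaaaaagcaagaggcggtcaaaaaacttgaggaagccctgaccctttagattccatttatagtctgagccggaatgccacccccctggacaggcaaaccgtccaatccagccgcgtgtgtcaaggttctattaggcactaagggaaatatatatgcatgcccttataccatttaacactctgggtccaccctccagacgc
Afp: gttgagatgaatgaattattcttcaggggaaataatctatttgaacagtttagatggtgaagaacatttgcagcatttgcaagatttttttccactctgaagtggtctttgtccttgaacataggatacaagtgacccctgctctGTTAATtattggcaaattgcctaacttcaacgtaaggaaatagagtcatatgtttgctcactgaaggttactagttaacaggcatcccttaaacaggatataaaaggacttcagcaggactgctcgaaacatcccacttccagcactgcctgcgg
Apoc2: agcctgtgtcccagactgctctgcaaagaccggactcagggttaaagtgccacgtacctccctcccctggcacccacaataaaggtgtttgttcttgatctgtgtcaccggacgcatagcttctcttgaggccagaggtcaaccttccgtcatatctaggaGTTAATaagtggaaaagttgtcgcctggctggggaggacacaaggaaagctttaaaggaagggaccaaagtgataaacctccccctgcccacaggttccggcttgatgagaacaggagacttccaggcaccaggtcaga
Of 12915 tested genes with such a sequence, 2437 (18.9%) held CAGCTG, against 6 of 16 proneural genes, 10 of 21 neuronal genes, 8 of 15 skeletal muscle genes, 3 of 13 fibroblast matrix genes, 2 of 20 neural progenitor genes and 1 of 17 yolk sac and liver genes. GTTAAT stood in 733 of the 12915 (5.68%) and in 7 of 17 yolk sac and liver genes. The other lists held it in 2 of 13 fibroblast matrix genes, 3 of 21 neuronal genes, 2 of 16 proneural genes, 2 of 20 neural progenitor genes and 0 of 15 skeletal muscle genes. These are descriptions of letters in a window, and the same E-box letters lay in front of neuronal genes that were higher with TBBPA and muscle genes that were lower.

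Over the 5 days together, genes of neural progenitors and neurons were higher in embryoid bodies with 100 nM TBBPA. Genes of fibroblast matrix, muscle, epithelia, yolk sac, endothelium and macrophages were lower. A gene is said to have risen or fallen when the mean over days passed edgeR's quasi-likelihood test at an adjusted p under 0.05. The day was a factor in that fit. The mean over days is the 1 treatment change fitted to all 5 days, in which days with more counts weigh more. It is not the plain average of the day differences. Of 16467 genes tested, 2415 passed (14.7%), 1205 of them higher (7.32%) and the rest lower (7.35%). The 100 nM library lay above both DMSO libraries on all 5 days for 637 genes (3.87%) and below both for 478 (2.9%). Most changes were small: the median log2 change was 0.25 over the genes that rose and -0.43 over those that fell. On log2(FPKM + 0.1), limma split its calls as 639 higher and 989 lower. In the fit above the DMSO libraries of a day count as separate samples. With each pair summed to 1 library, 126 genes passed (0.765%), 31 higher (0.188%) and 95 lower (0.577%), so the count of each list below is given with that setting too, written as "with the pairs summed". Leaving out the 100 nM library of D12 left 1488 genes passing, and leaving out that of D18 left 1327.

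**Figure D1:**
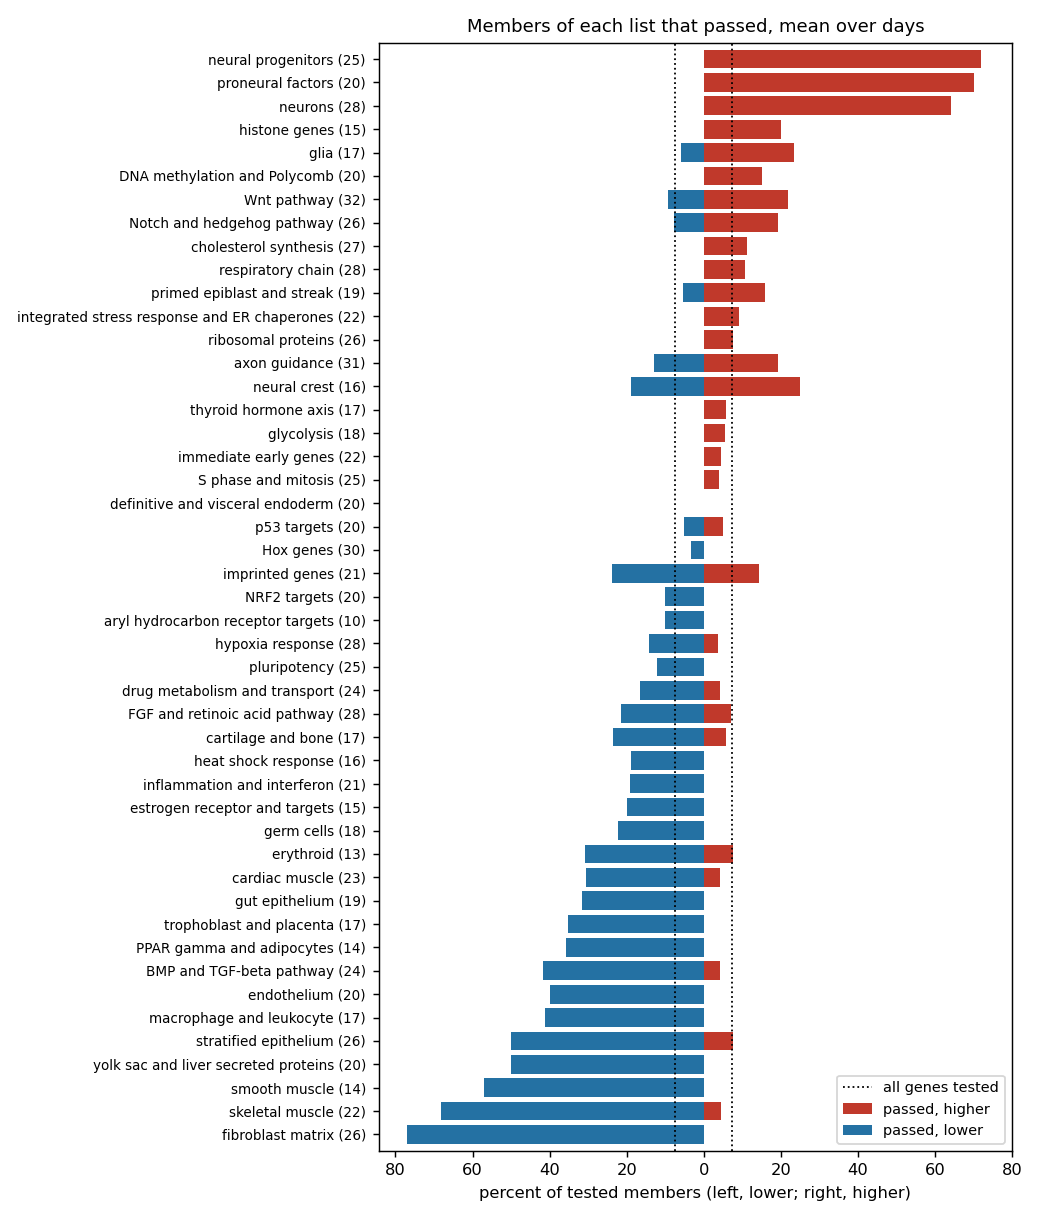
Share of the tested members of each gene list (number tested in brackets) that passed the test of the mean over days, to the right for higher and to the left for lower with 100 nM TBBPA. Dotted lines mark the shares over all genes tested, 7.32% higher and 7.35% lower, which the neural lists exceed on the right and matrix and muscle lists on the left.

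Neural progenitor genes formed the list with the greatest share of rises. Of 25 tested members, 18 rose and none fell, with a median log2 change of 0.47 against 0.01 over all genes tested; with the pairs summed 3 rose. Sox1, a transcription factor of the first neuroectoderm, stood at 1.94 and 1.57 CPM with DMSO and 2.08 with 100 nM TBBPA at D4, at 34.0 and 34.9 against 66.5 at D9, at 33.8 and 35.0 against 60.5 at D12, at 27.8 and 27.8 against 56.5 at D18, and at 12.7 and 14.1 against 16.4 at D28. The treated library lay above both DMSO libraries at all 5 days, by most at D9 to D18 (0.78 ± 0.08 on the log2 scale ± SE, adjusted p = 5.02e-05, and 0.0317 with the pairs summed). Sox3, its close relative, was at 41.4 and 44.0 against 57.7 CPM at D4, 16.2 and 19.1 against 27.3 at D9, 25.4 and 25.5 against 50.1 at D12, 14.98 and 14.5 against 29.9 at D18, and 5.13 and 4.60 against 7.21 at D28. Unlike Sox1 it was already abundant at D4, and its rise of 0.74 ± 0.08 was seen on each day (adjusted p = 2.83e-05, and 0.0204 with the pairs summed).

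Hes5, the Notch target that keeps progenitors undifferentiated, was near 0 at D4 (0.303 and 0.121 against 0.0612 CPM), then at 5.72 and 5.33 against 8.58 at D9, 15.96 and 15.7 against 43.2 at D12, 10.8 and 10.2 against 24.04 at D18, and 1.01 and 1.23 against 1.55 at D28. Its fitted change was 1.06 ± 0.14, and the treated library was above both controls from D9 on. Pax6, a progenitor factor of forebrain and spinal cord, rose by 0.61 ± 0.08 with the treated library higher at all 5 days, as at D12 with 23.8 against 11.7 and 13.4 CPM. Neither Hes5 nor Pax6 passed with the pairs summed (adjusted p = 0.052 for each). Among the largest rises were also Zic1, a zinc-finger factor of the dorsal neural tube (0.78 ± 0.16), and Dbx1, a homeobox factor of ventral spinal progenitors (0.86 ± 0.16). Zic1 was highest relative to controls at D9, with 46.5 against 13.3 and 15.1 CPM, and Dbx1 at D18, with 58.6 against 21.6 and 20.6.

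Proneural factors and the genes around them rose as well. Of 20 tested members 14 rose and none fell, with a median of 0.63; with the pairs summed 3 rose. Nhlh1, a bHLH factor of newborn neurons, was at 0.121 and 0 CPM with DMSO against 0.122 at D4, 5.62 and 5.65 against 8.25 at D9, 22.4 and 24 against 47.6 at D12, 21.8 and 22.1 against 39.9 at D18, and 1.07 and 0.921 against 1.45 at D28 (0.83 ± 0.09, adjusted p = 4.12e-05, and 0.0204 with the pairs summed). The treated library stood above both controls from D9 on, while at D4 the gene was near 0 in all 3 libraries. Dll1, the Notch ligand that newborn neurons present to their neighbours and whose start region is printed above, rose by 0.72 ± 0.09 and was above both controls at all 5 days. Its levels ran from 5.63 to 38.0 CPM over the DMSO libraries and from 6.85 to 71.1 over the treated ones. The treated level was highest at D12, while the DMSO libraries were alike at D12 (38.0 and 33.1) and D18 (35.8 and 36.5). Nhlh2 rose by 0.75 ± 0.10 on the mean, but stood above both controls at 3 of 5 days, D9 to D18.

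**Figure D2:**
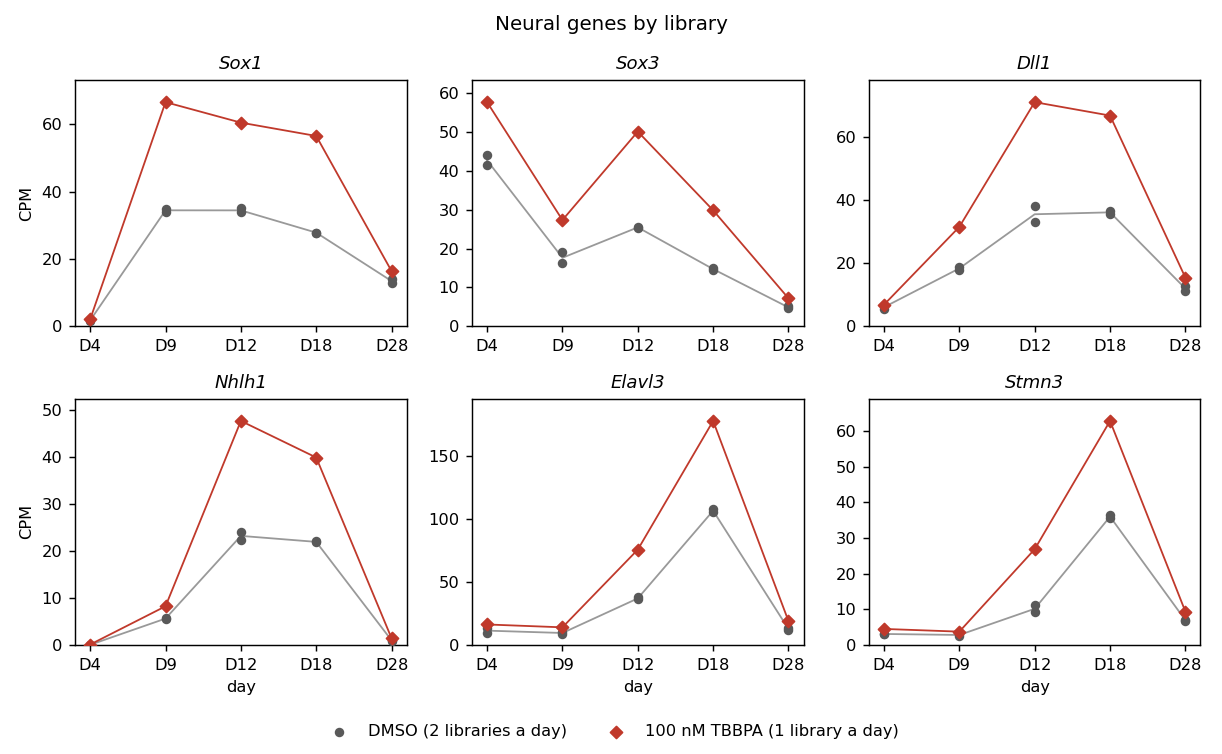
CPM (linear axis from 0) of 6 neural genes by day, with a grey point for each of the 2 DMSO libraries, a red diamond for the single 100 nM TBBPA library, and lines through the DMSO means and the treated values. Treated values lie above both controls at D9, D12 and D18 in all 6 genes, as for Elavl3 at D12 with 75.6 against 36.3 and 37.7 CPM.

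Genes of differentiated neurons moved with the proneural factors. Of 28 tested members 18 rose and none fell, with a median of 0.55; with the pairs summed 1 passed, Elavl3. Elavl3, whose start region holds the E-box shown, was at 9.69 and 13.2 CPM with DMSO against 16.3 at D4, 10.1 and 9.02 against 14.1 at D9, 36.3 and 37.7 against 75.6 at D12, 105.0 and 107.8 against 177.5 at D18, and 13.1 and 12.3 against 19.03 at D28. That is a rise of 0.72 ± 0.07 (adjusted p = 2.40e-05, and 0.0146 with the pairs summed), with the groups apart on every day. Tubb3, the neuronal beta-tubulin, was lower than both controls at D4 (4.34 against 5.03 and 5.51 CPM) and higher afterwards, as at D12 with 264.3 against 118.2 and 123.9 (0.65 ± 0.11). Stmn3, a stathmin that binds tubulin, rose by 0.81 ± 0.11, and its level at D18 was 62.8 against 36.4 and 35.6 CPM. Pou4f1, a factor of sensory neurons, rose by 0.86 ± 0.14 with its widest gap at D18, 21.3 against 7.44 and 8.996 CPM. The neurofilament light chain gene Nefl rose by 0.59 ± 0.09, and at D28 it was still at 11.9 against 6.04 and 6.85 CPM.

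The other large rises named by the rule were Cdh8, a type II cadherin (0.84 ± 0.10), Epha10, an Eph receptor (0.85 ± 0.15), Dpysl4, of the collapsin response mediators (0.81 ± 0.12), Rab39b, a Rab GTPase of neurons (0.77 ± 0.11), Fgfbp3, an FGF-binding protein (0.78 ± 0.09), and Fam181b (0.89 ± 0.11). Fam181b was the largest rise of the rule, at 41.5 and 39.9 CPM with DMSO against 84.9 at D9, 58.0 and 51.9 against 112.7 at D12 and 42.4 and 44.5 against 94.0 at D18. At D4 it was near 0 in all 3 libraries, and at D28 the groups stood close, 17.9 and 17.5 against 20.2. None of the 12 largest rises reached a 2-fold fitted change, and 5 of the 12 passed with the pairs summed.

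Neighbouring neural lists moved less evenly. Of 17 glial genes 4 rose and 1 fell. Fabp7, the brain lipid-binding protein found in radial glia, rose by 0.74 ± 0.10 and was at 109.2 against 47.8 and 48.8 CPM at D12, chosen after its values were seen. Of 31 axon guidance genes 6 rose and 4 fell. The netrin receptor gene Dcc (0.76 ± 0.13) was among the rises, and the neuropilin gene Nrp1, also an endothelial receptor (-0.52 ± 0.07), among the falls. Of 16 neural crest genes 4 rose and 3 fell: Tfap2b (0.66 ± 0.12) and Pax3 (0.67 ± 0.13), which also mark dorsal neural tube, rose, while Snai2, a factor of migrating crest (-0.62 ± 0.13), and Erbb3, a neuregulin receptor (-0.39 ± 0.08), fell. With the pairs summed 1 glial gene (Fabp7) and 2 guidance genes (Ephb1 higher and Nrp1 lower) passed, and 0 of the neural crest.

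**Figure D3:**
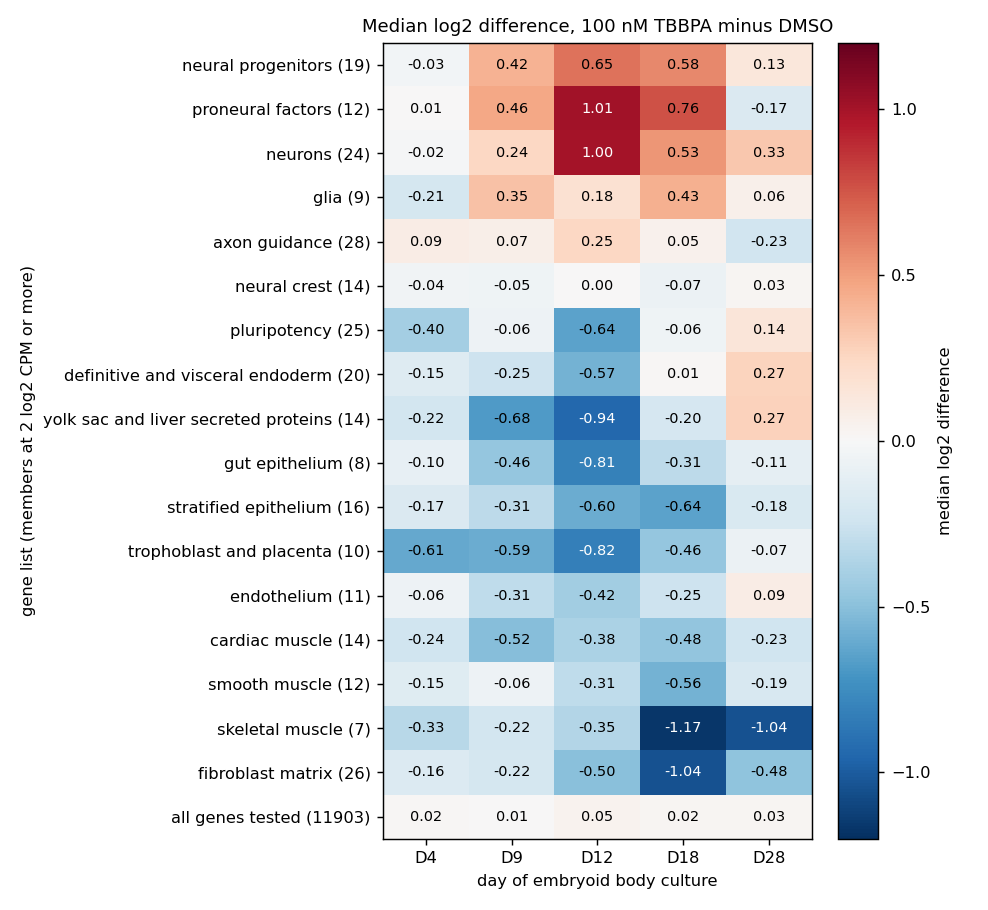
Median over each list of the log2 difference between the 100 nM TBBPA library and the mean of the DMSO pair at each day, for members averaging at least 2 log2 CPM (number in brackets). Red is higher and blue lower with TBBPA. The lists of neural progenitors, proneural factors and neurons are near 0 at D4 and highest at D12. Glia are at -0.21 at D4 and highest at D18, and neural crest stays near 0. Matrix and skeletal muscle lists are lowest at D18, and the last row gives all genes.

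Fibroblast matrix genes fell with the greatest share of any list. Of 26 tested members 20 fell and none rose, all 26 fitted changes were below 0, and the median was -0.57; with the pairs summed 6 fell. RNA of a bulk library cannot tell fewer cells of a type from less RNA in each, and that holds for every cell type here. Lum, the proteoglycan lumican, was at 0 CPM in all 3 libraries of D4, at 4.03 and 3.37 with DMSO against 2.16 at D9, 31.1 and 34.5 against 20.1 at D12, 79.8 and 85.8 against 40.4 at D18, and 126.2 and 132.2 against 91.5 at D28 (-0.74 ± 0.08, adjusted p = 9.73e-05, and 0.0204 with the pairs summed). Controls and treated bodies both gained Lum with time, and the treated value was the lowest of its day from D9 on. Tnc, the matrix glycoprotein tenascin-C, was at 1.03 and 1.03 against 0.612 CPM at D4, 43.5 and 41.4 against 30.3 at D9, 88.2 and 88.5 against 59.9 at D12, 339.9 and 338.2 against 198.3 at D18, and 324.9 and 328.9 against 257.9 at D28 (-0.54 ± 0.05, adjusted p = 1.45e-05, and 0.0156 with the pairs summed).

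Fn1, the fibronectin gene, is among the most abundant of the list, with 407.9 and 414.3 against 351.1 CPM at D4 and 1990 and 1976 against 1229 at D12 (-0.45 ± 0.06). Pdgfrb, the receptor of platelet-derived growth factor on mesenchymal cells, fell by 0.56 ± 0.07 and was lower than both controls at all 5 days. Col6a3, a collagen VI chain, was the largest matrix fall named (-0.99 ± 0.15), but at D4 it was higher with TBBPA, 1.35 against 0.909 and 0.605 CPM. At D18 it stood at 30.7 against 89.5 and 90.0, and at D28 at 110.1 against 187.5 and 199.7 CPM. It did not pass with the pairs summed (adjusted p = 0.0542). The fibrillar collagen gene Col3a1, chosen after its values were seen, went from 1.16 CPM at D4 to 2960.0 at D28 with TBBPA and from 2.36 and 1.21 to 4362 and 4539 with DMSO (-0.77 ± 0.09).

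Skeletal muscle genes had the largest median change of the 47 lists. Of 22 tested members 15 fell and 1 rose, with a median of -0.93; with the pairs summed 5 fell. Myl1, of the muscle sarcomere, was at most 0.38 CPM in the DMSO and 100 nM libraries of D4 to D12. At D18 it was at 7.89 and 7.24 CPM with DMSO and 0.766 with TBBPA, and at D28 at 24.7 and 27.5 against 4.04 (-2.71 ± 0.23, adjusted p = 1.45e-05, and 0.0201 with the pairs summed). The change thus rests on 2 days. Myog, myogenin, the bHLH factor of muscle differentiation, had the same course: 8.30 and 9.55 against 1.02 CPM at D18 and 11.2 and 10.7 against 2.64 at D28 (-2.26 ± 0.30). Myh8, the perinatal myosin heavy chain, was at 8.10 and 8.996 against 2.14 CPM at D18 and 43.8 and 47.1 against 17.99 at D28 (-1.42 ± 0.20).

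Tnni1, the slow troponin I of skeletal and embryonic heart muscle, was lower at all 5 days, from 2.55 against 4.09 and 4.35 CPM at D9 to 7.93 against 16.3 and 16.5 at D28 (-0.90 ± 0.11). The giant sarcomere protein gene Ttn was at 2.36 and 2.36 against 1.83 CPM at D4, 2.56 and 2.45 against 1.60 at D9, 8.11 and 10.4 against 7.75 at D12, 11.4 and 11.5 against 5.26 at D18, and 23.1 and 23.6 against 6.95 at D28 (-0.92 ± 0.18). It was below both controls throughout, by most at D28. The 1 member that rose was Pax7, which marks muscle precursors and also dorsal neural tube: it was at 12.3 against 3.92 and 3.80 CPM at D9 and at 0.622 against 1.01 and 0.614 at D28 (1.02 ± 0.19).

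Cardiac and smooth muscle genes moved less. Of 23 cardiac genes 7 fell and 1 rose (median -0.40; 1 fell with the pairs summed), and of 14 smooth muscle genes 8 fell (median -0.27; 0 with the pairs summed). Tbx20, a factor of the early heart, fell by 0.83 ± 0.11 and was at 5.37 against 11.6 and 11.5 CPM at D9. Hand2, a bHLH factor of heart and limb mesenchyme, was at 2.99 against 8.40 and 9.67 CPM at D9 and 10.0 against 12.2 and 12.4 at D28 (-0.73 ± 0.14). The atrial light chain gene Myl4 fell by 0.84 ± 0.15. Myh6, alpha myosin heavy chain, was about 2-fold lower at D9 and D18 (differences of -1.10 and -1.002 on the log2 scale) and close to controls at D28, with 62.7 against 63.2 and 67.6 CPM. Acta2, smooth muscle actin, was among the most abundant of these genes and changed little, with a highest level of 711.0 against 857.7 and 866.7 CPM at D12 (-0.25 ± 0.05).

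**Figure D4:**
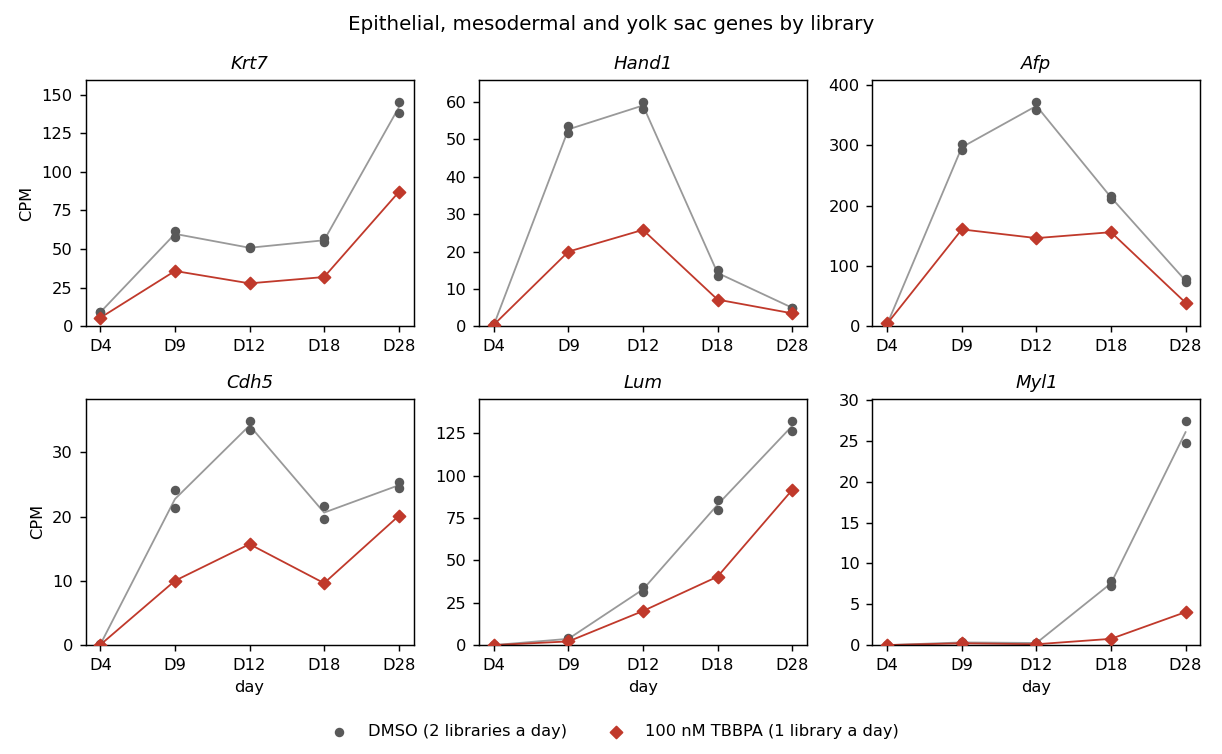
CPM (linear axis from 0) of 6 genes that fell, by day, with a grey point for each DMSO library and a red diamond for the 100 nM TBBPA library. Krt7 is lower at each of the 5 days, Hand1, Afp and Cdh5 mainly from D9 on, and the gap of Myl1 lies at D18 and D28, where it is at 0.766 and 4.04 CPM with TBBPA.

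Krt7, a keratin of simple epithelia and trophoblast, had the smallest adjusted p of the named genes. It was at 9.03 and 9.26 CPM with DMSO against 5.57 with TBBPA at D4, 61.9 and 57.8 against 35.8 at D9, 51.3 and 50.4 against 27.8 at D12, 54.4 and 57.0 against 31.9 at D18, and 137.9 and 145.1 against 86.8 at D28. The change was -0.77 ± 0.04 (adjusted p = 2.16e-08, and 0.00111 with the pairs summed), and the differences of single days lay between -0.87 and -0.70. The trophoblast and placenta list it belongs to had 6 falls and no rise among 17 members (median -0.54; 3 with the pairs summed). Hand1, a bHLH factor of trophoblast giant cells, extraembryonic mesoderm and heart, was at 0.545 and 0.242 against 0.428 CPM at D4, 51.7 and 53.7 against 19.98 at D9, 60.0 and 58.2 against 25.8 at D12, 15.03 and 13.5 against 7.15 at D18, and 4.92 and 5.01 against 3.47 at D28 (-1.11 ± 0.10). Tfap2c, an AP-2 factor of trophoblast, surface ectoderm and germ cells, was lower at all 5 days (-0.54 ± 0.06), and the homeobox gene Rhox9 fell by 0.84 ± 0.14.

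Stratified epithelium, the lineage of skin, had 13 falls and 2 rises among 26 members (median -0.40; 2 falls and 1 rise with the pairs summed). Trp63 (p63), the factor of basal epithelial cells, was at 0.0606 and 0.121 against 0 CPM at D4, 6.32 and 7.93 against 2.05 at D9, 9.24 and 9.85 against 6.28 at D12, 14.01 and 16.03 against 9.03 at D18, and 24.1 and 24.4 against 13.3 at D28 (-0.91 ± 0.13). Itgb4, the integrin of hemidesmosomes (-0.46 ± 0.06), and Perp, of desmosomes (-0.44 ± 0.05), were both lower than the 2 controls at all 5 days. The 2 members that rose were Krt5, a basal keratin, and Lor, loricrin of the cornified layer, at 282.6 against 196.5 and 206.4 and at 113.0 against 62.7 and 76.9 CPM at D28. Gut epithelium had 6 falls among 19 members and none with the pairs summed.

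Yolk sac and liver proteins had 10 falls and no rise among 20 members (median -0.53; 3 with the pairs summed). Afp, alpha-fetoprotein, was at 3.51 and 4.42 against 4.71 CPM at D4, 291.6 and 302.5 against 160.7 at D9, 359.4 and 371.8 against 146.3 at D12, 211.6 and 216.2 against 156.1 at D18, and 73.2 and 78.3 against 39.1 at D28 (-0.84 ± 0.12, adjusted p = 0.00146, and 0.0455 with the pairs summed). Treated bodies had less from D9 on. Trf, the iron carrier transferrin, was at 4.36 and 3.75 against 3.36 CPM at D4, 61.0 and 63.2 against 30.6 at D9, 122.0 and 121.4 against 42.5 at D12, 71.3 and 73.3 against 48.1 at D18, and 55.4 and 52.4 against 18.7 at D28 (-1.09 ± 0.13). Apoc2, a lipoprotein cofactor, was at 25.7 against 55.6 and 55.8 CPM at D9 and no longer apart at D28, with 1.09 against 1.07 and 1.28 (-0.78 ± 0.11). Tdo2, which breaks down tryptophan, fell by 1.32 ± 0.19 at levels under 10 CPM. Afp and Apoc2 carry the HNF1 letters printed above. Over the members at 2 log2 CPM or more, the list's median difference was -0.68 at D9, -0.94 at D12 and 0.27 at D28, so the list stood above controls on the last day while Afp and Trf stayed below.

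Endothelial genes had 8 falls and no rise among 20 members (median -0.34; 1 with the pairs summed). Cdh5, VE-cadherin, which joins endothelial cells, was at 0.182 and 0.0605 against 0.0612 CPM at D4, 21.4 and 24.1 against 10.0 at D9, 34.9 and 33.5 against 15.7 at D12, 19.7 and 21.6 against 9.64 at D18, and 25.4 and 24.4 against 20.1 at D28 (-0.90 ± 0.11, adjusted p = 0.000249, and 0.0284 with the pairs summed). Pecam1 (-0.46 ± 0.09), the TGF-beta co-receptor gene Eng (-0.32 ± 0.08) and the apelin receptor gene Aplnr (-0.45 ± 0.11) fell by less. Pecam1, which ES cells also express, was at 15.9 against 28.9 and 28.9 CPM already at D4 and level with controls at D28. Macrophage genes had 7 falls and no rise among 17 members (median -0.87; 1 with the pairs summed), at low levels. Mrc1, the mannose receptor, was at 3.01 against 11.1 and 11 CPM at D28 (-1.24 ± 0.17), and Csf1r, the receptor that macrophages need to survive, at 6.91 against 14.9 and 14.3 at D12 (-0.70 ± 0.13). Lyz2, lysozyme, was at 6.79 against 23.4 and 21.1 CPM at D28 and under 2 CPM before (-1.08 ± 0.29), and without the treated library of D28 its change was 0.03.

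Embryonic red cell genes appeared at D9 and D12. The globin gene Hbb-bh1 was at 0.277 against 3.05 and 2.50 CPM at D9 and 9.97 against 24.6 and 26.8 at D12, and Hba-x at 0.166 against 2.02 and 2.50 and then 9.07 against 17.97 and 18.97. Both fell in the test (-1.54 ± 0.32 and -1.34 ± 0.31), on levels that reached these 2 days only, and neither passed with the pairs summed (adjusted p = 0.122 and 0.147). Of 13 erythroid genes 4 fell and 1 rose, Tal1, which also marks midbrain and spinal neurons, and 0 passed with the pairs summed. Hba-a2 has a near-identical copy and was near 0, so no fold is given.

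The remaining large falls of the rule were of several lineages. Adgrf5, an adhesion receptor of endothelium and lung, was the largest at -1.22 ± 0.12. It was at 0.666 and 0.605 against 0.612 CPM at D4, then at 12.8 and 12.4 against 6.42 at D9, 23.1 and 24.1 against 7.54 at D12, 20.2 and 19.8 against 7.14 at D18, and 11.8 and 11.1 against 6.27 at D28. Aqp1, a water channel of vessels and epithelia, was at 39.7 and 39.8 against 15.8 CPM at D18 and 130.7 and 134.2 against 69.5 at D28 (-1.03 ± 0.09). Pax9 (-1.11 ± 0.16) and Tbx1 (-0.93 ± 0.18), are factors of the pharyngeal region. Pax9 was lowest relative to controls at D9 and Tbx1 at D18 (differences of -1.78 and -1.61), and at D12 Tbx1 lay between its controls, 7.49 against 8.06 and 6.84 CPM. Arhgef6, a guanine nucleotide exchange factor (-0.90 ± 0.14), and 3830417A13Rik (-1.05 ± 0.11) complete the 12 falls. Of the 12, 6 were past a 2-fold fitted change and 7 passed with the pairs summed. A fitted change past 2-fold does not mean 2-fold on each day. Hand1, for example, had day differences of 0.17 at D4, -1.39 at D9 and -0.50 at D28.

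Signalling genes differed by pathway. Of 24 BMP and TGF-beta genes 10 fell and 1 rose (2 falls with the pairs summed). Among the ligands, Tgfb1 was lower at all 5 days, from 4.04 against 5.21 and 4.78 CPM at D4 to 41.0 against 55.6 and 56.5 at D28 (-0.47 ± 0.05), and Bmp4 (-0.43 ± 0.08) and Bmp5 (-0.44 ± 0.08) fell. The 1 member that rose, Gdf7, a ligand of the dorsal spinal cord roof plate, was under 2 CPM in every library (1.12 ± 0.36).

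Of 26 Notch and hedgehog genes 5 rose and 2 fell, and with the pairs summed 1 rose, Dll1. The rises were all in the Notch part of the list, with the ligands Dll1 and Dll3, the modifier Lfng (0.51 ± 0.11) and the targets Hes5 and Nrarp (0.48 ± 0.10). Of 32 Wnt genes 7 rose and 3 fell, 0 of them with the pairs summed. Wnt1, a ligand of midbrain and dorsal neural tube, was at 69.4 against 34.3 and 34.5 CPM at D9 and 67.9 against 45.1 and 44.5 at D12 (0.59 ± 0.11), and Wnt3a rose by 0.91 ± 0.18 at levels of at most 7.42 CPM. Of 28 FGF and retinoic acid genes 2 rose and 6 fell, and with the pairs summed 1 fell, Rarb. Rarb, a retinoic acid receptor and itself a retinoic acid target, was lower at all 5 days, as at D9 with 5.37 against 11.3 and 10.1 CPM (-0.81 ± 0.08, adjusted p = 0.0201 with the pairs summed). Members of these pathways outside Tgfb1, Bmp4 and Bmp5 were named after their values were seen.

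Imprinted genes, expressed from 1 parental copy and often active in fetal growth, had 5 falls and 3 rises among 21 members (3 falls with the pairs summed). The growth factor gene Igf2, among the most abundant transcripts, was at 1516 against 2117 and 2066 CPM at D9, 2266 against 3968 and 4063 at D18 and 4344 against 4351 and 4716 at D28 (-0.49 ± 0.08). Its scavenging receptor gene Igf2r (-0.36 ± 0.05) and Peg3 (-0.28 ± 0.05) fell by less, and Zim1, a zinc-finger gene that lies next to Peg3, fell by 0.89 ± 0.07 with about equal differences from D9 to D28. Peg12, Ndn and Snrpn rose.

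Genes of the PPAR gamma and adipocyte list that passed were lower with TBBPA. Of 14 tested members 5 fell, beside 7.35% lower over all genes, and none rose. All 14 fitted changes were below 0, with a median of -0.32, and 0 passed with the pairs summed. Pparg itself, the nuclear receptor of fat cells, was at 2.16 against 3.71 and 3.26 CPM at D9, 2.37 against 4.75 and 5.39 at D12 and 1.63 against 4.13 and 3.57 at D18 (-0.85 ± 0.16), and its partner receptor gene Rxra (-0.16 ± 0.04), the adipocyte factor gene Cebpa (-0.44 ± 0.09) and the acyl-CoA synthetase gene Acsl1 (-0.30 ± 0.06) fell too. Fabp4, the fat cell target of PPAR gamma, was under 3 CPM in every library and did not pass (adjusted p = 0.307). Of 17 thyroid hormone genes 1 rose: the receptor gene Thra, by 0.13 ± 0.04, which did not pass with the pairs summed (adjusted p = 0.246). Its sister Thrb, the deiodinase gene Dio3 and the target Klf9 did not pass (changes of -0.23 ± 0.15, 0.08 ± 0.13 and -0.18 ± 0.07). Of 10 aryl hydrocarbon receptor targets 1 fell, Aldh3a1, under 2 CPM throughout, and 0 passed with the pairs summed. Cyp1a1, the most inducible target of that receptor, lay between 0.0512 and 1.57 CPM with DMSO and between 0.156 and 1.77 with TBBPA (adjusted p = 0.306). Ahr, the receptor gene, did not pass on the mean (-0.46 ± 0.17, adjusted p = 0.0854), with 17.5 against 36.0 and 35.8 CPM at D18 and 26.8 against 59.5 and 57.3 at D28.

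The stress, growth and metabolic lists are set beside the 7.32% of all genes that rose and the 7.35% that fell. Of 16 heat shock genes 3 fell, Hspa1b (which has a near-identical copy), Hspb1 and Hspb8, and of 20 NRF2 targets 2 fell. Among the genes that rose were 2 of 22 of the integrated stress response, 3 of 28 of the respiratory chain, 1 of 18 of glycolysis, 1 of 22 immediate early genes and 1 of 25 of S phase and mitosis, while of 20 p53 targets 1 rose and 1 fell. All 28 fitted changes of the respiratory chain and all 25 of S phase and mitosis were above 0, with small medians of 0.07 and 0.06. With the pairs summed 1 member of these lists passed, the p53 target Perp, a gene also in the stratified epithelium list. Among the pluripotency genes 3 of 25 fell (Dppa2, Dppa3 and Klf5), and of 20 endoderm genes 0 passed. With D9 to D28 alone 1 pluripotency gene rose and 1 fell. All 20 endoderm genes differed between days, beside 37.4% of all genes, but so did 24 of the 25 pluripotency and all 26 fibroblast matrix genes. Of the other lists, hypoxia response had 1 rise and 4 falls among 28 members, cholesterol synthesis 3 rises among 27, ribosomal proteins 2 rises among 26, histone genes 3 rises among 15, DNA methylation and Polycomb 3 rises among 20, and drug metabolism and transport 1 rise and 4 falls among 24. Estrogen receptor targets had 3 falls among 15, inflammation and interferon 4 among 21 and Hox genes 1 among 30. Of the lists from pluripotency on, 1 member passed with the pairs summed, Ltf, an estrogen receptor target. Some single members of such lists moved far and were picked after their values were seen. Ltf, lactoferrin of mucosal secretions, was at 42.7 and 46.1 against 9.85 CPM at D28 and under 1 CPM before (-2.03 ± 0.27, adjusted p = 0.0319 with the pairs summed). Lcn2, an iron-binding defence protein, was at 19.2 and 16.3 against 3.99 CPM on the same day (-2.11 ± 0.35).

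The difference between the 100 nM library and its DMSO controls was not the same on each day. With 1 treated library a day, an effect that changes with the day cannot be told apart from variation between treated libraries. In the test of whether the 100 nM effect differed between days, 6153 of 16467 genes passed (37.4%). That test has 5 residual degrees of freedom, all from the DMSO pairs, since there is 1 treated library a day, and in the fit of all 22 libraries 1294 passed. Single days have no replicate of their own, so their differences are given as values. Among 11903 genes at 2 log2 CPM or more on average, 83 were past 2-fold at D4 (0.697%), 53 at D9 (0.445%), 155 at D12 (1.3%), 115 at D18 (0.966%) and 40 at D28 (0.336%). Between the DMSO libraries of a day the counts past 2-fold were 63, 8, 5, 6 and 4. The 2 kinds of count lay closest at D4, with 83 and 63. They are not alike, since the treated library is set against the mean of a DMSO pair and a DMSO library against a single one. At D12, 86 genes were past 2-fold higher and 69 lower, and at D18 22 higher and 93 lower.

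The neural lists had median differences near 0 at D4 (-0.03 for progenitors, 0.01 for proneural factors and -0.02 for neurons). At D12 these were 0.65, 1.01 and 0.996, at D18 0.58, 0.76 and 0.53, and at D28 0.13, -0.17 and 0.33. Fibroblast matrix was at -0.16 at D4 and -1.04 at D18, and skeletal muscle at -1.17 at D18 and -1.04 at D28. Pluripotency genes were at -0.40 at D4, -0.64 at D12 and 0.14 at D28. All 12 named falls and 9 of the 12 named rises differed between days, beside 37.4% of all genes tested. Nhlh1, Cdh8 and Rab39b did not pass that test, nor did Krt7 (adjusted p = 0.641).

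The 6 genes of smallest p in the test between days changed direction. Ttr, transthyretin, the carrier of thyroxine made by yolk sac, liver and choroid plexus, was at 76.3 against 144.6 and 155.9 CPM at D9, 67.7 against 131.2 and 131.5 at D12, 44.1 against 43.3 and 38.8 at D18, and 114.9 against 60.4 and 61.9 at D28. Cldn6, a claudin of embryonic epithelia, was at 170.0 against 262.2 and 259.6 CPM at D12 and 392.8 against 233.3 and 222.9 at D28. Car4, a carbonic anhydrase, Podxl, the sialomucin podocalyxin, and Peg10, an imprinted gene of placenta, followed the same course, with D28 values of 160.8 against 87.3 and 80.9, 683.8 against 487.1 and 476.9, and 1653 against 1172 and 1153 CPM. Ntn1, the guidance cue netrin-1, went the other way: 276.8 against 149.9 and 150.6 CPM at D12 and 182.3 against 251.0 and 246.5 at D28. None of the 6 passed on the mean over days.

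The 10 nM libraries of the same days allow the doses to be set side by side. Both doses are measured against the same 10 DMSO libraries, so a likeness of their changes is no independent result. In 1 fit of the 20 embryoid body libraries the difference between 100 nM and 10 nM was tested directly, and 0 of 16533 genes passed with edgeR (0.0%; 1046 at an unadjusted p under 0.05), while DESeq2 called 12. With 1 library per dose and day this leaves wide intervals, and it does not show that the doses act alike. Over the 24 named genes the differences between doses ran from -1.05 to 0.40 on the log2 scale. Adgrf5 changed by -1.22 ± 0.11 at each dose, a difference of 0.00 (95% interval -0.28 to 0.29). Krt7 changed by -0.77 ± 0.06 at 100 nM and -0.64 ± 0.06 at 10 nM, and Elavl3 by 0.72 ± 0.08 at each.

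Of the 24, the yolk sac gene Trf stood farthest apart in value. It changed by -1.13 ± 0.23 at 100 nM and by -0.07 ± 0.22 at 10 nM, a difference of -1.05 (95% interval -1.61 to -0.50; adjusted p = 0.431). Afp differed by -0.85 (-1.37 to -0.33; adjusted p = 0.465) and Apoc2 by -0.61 (-0.94 to -0.29; adjusted p = 0.41), both outside the 24. Apart from Hba-a2, near 0, the other named genes that differed by more than Trf were, at levels near 0 on most days, Myl1 by -1.51 (-2.45 to -0.57; adjusted p = 0.465) and Hbb-bh1 by -1.13 (-1.91 to -0.35; adjusted p = 0.551). The 10 nM library of D18 held 433.7 CPM of Afp against 211.6 and 216.2 with DMSO and 156.1 at 100 nM. Of the 24 named genes 11 of 12 rises and 8 of 12 falls also passed at 10 nM in the fit of 20 libraries. The exceptions were Zic1 among the rises and Trf, Col6a3, Tbx1 and Cdh5 among the falls. Over all 16533 genes of that fit, 893 were higher and 661 lower at 10 nM. Of all genes that had risen at 100 nM 577 passed at 10 nM, and of all that had fallen 452. The 24 were chosen by their 100 nM values against the same DMSO libraries, so their counts are no independent result.

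**Figure D5:**
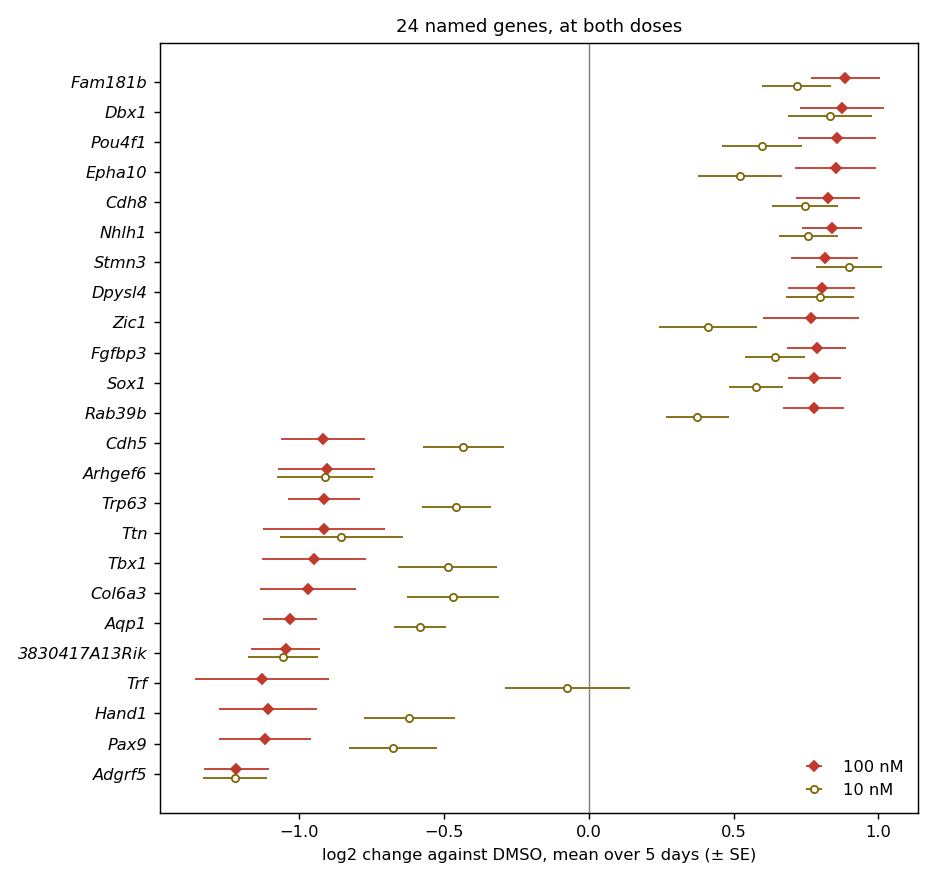
Log2 change against DMSO with its SE, of the 24 genes named as largest rises and falls at 100 nM. Red diamonds are 100 nM and open circles 10 nM, from 1 fit of 20 libraries that share the DMSO controls. Each value is 1 change fitted over the 5 days, not the plain average of the day differences. The genes were chosen by their 100 nM values; the 2 doses lie close for Adgrf5 and Stmn3 and farthest apart for Trf, at -1.13 and -0.07.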

How the data were processed

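RNA of 15 libraries was compared, from 1 deposited table per library. Its expected counts (estimated reads of each gene, made by the authors, per the file headers) were rounded to whole numbers; 64.9 to 66.7% were whole already. FPKM values, deposited in the same tables, entered the alternatives only. Reads were aligned with HISAT and Bowtie2, with GRCm38.p5 as the build, per the submitters' processing notes, without versions. The counting tool and strand are not given in the sources used here, so overlapping genes are uncertain. Genes that a table does not list were set to 0.

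Groups and days were read from the titles. Counts were tested with edgeR 4.0.16 (R 4.3.3; TMM, filterByExpr with a minimum count of 10 and total of 15, robust quasi-likelihood F tests), with the day as a factor and 9 residual degrees of freedom, or 4 with the DMSO pairs summed. The difference between days had 5 residual degrees of freedom, and the difference between doses, in 20 libraries, 13. Benjamini-Hochberg adjustment ran over all genes of a test. The SE is the log2 change divided by the square root of F. CPM values come from 1 scaling of the 20 embryoid body libraries, and day differences use a prior count of 2. Fits were tested on simulated counts.

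Of 1035 members of 47 lists, 1027 were matched to the tables (5 by an older symbol) and 1003 were tested. The comparison and the lists were chosen with earlier results of these data known. The rule for named genes takes the 12 largest rises and falls that passed, averaged at least 2 log2 CPM and lay outside both controls on at least 4 of 5 days. It adds the 6 genes of smallest p between days, 25 fixed markers and, from each list of at least 3 members with 1 in 3 or more passing, the 4 of smallest p. No gene met its part on doses. Other genes named were chosen after their values were seen. Alternatives were DESeq2 1.42.0, limma 3.58.1 on log2(FPKM + 1) and log2(FPKM + 0.1), other scalings, filters, controls and samples in the fit, and each library left out. The restriction to D9 to D28, and the list counts with pairs summed, were added after seeing the data. Promoter sequences are from RefSeq, build GRCm38.p6. Plots were made in Python 3.11.15 with matplotlib 3.10.9. Some genes that the rule names are not reported here.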

Additional observations from a re-analysis of the deposited data

Results flagged for a closer look

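The effect of 100 nM TBBPA was listed for a closer look where a test found that it differed between the days. Over all genes this held for 6153. The test takes its error from the DMSO pairs alone, so it cannot tell a difference between days from variation between the single treated libraries.

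Among the largest rises, the adjusted p of the difference between days was 5.95e-08 for Fam181b, 1.16e-07 for Dbx1, 0.00345 for Pou4f1, 0.000152 for Epha10, 6.19e-05 for Stmn3 and 2.08e-07 for Dpysl4. It was 2.28e-14 for Zic1, 0.00116 for Fgfbp3 and 4.31e-05 for Sox1.

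Among the largest falls it was 0.00176 for Adgrf5, 0.000129 for Pax9, 0.00517 for Hand1, 6.39e-12 for Trf, 0.0338 for 3830417A13Rik and 0.0221 for Aqp1. It was 6.28e-09 for Col6a3, 8.91e-06 for Tbx1, 1.97e-06 for Ttn, 0.00619 for Trp63, 4.17e-08 for Arhgef6 and 1.31e-05 for Cdh5. Of the genes whose direction turned over the days, Ttr had 2.31e-24, Cldn6 3.53e-22, Car4 3.66e-22, Ntn1 1.12e-21, Peg10 1.27e-21 and Podxl 1.39e-21.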

How the results depend on the processing

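No paired analysis was possible because the 100 nM libraries, 1 a day, carry no replicate number to match with those of the DMSO libraries. Libraries were compared within days by the day factor, and with each pair summed the comparison is of 1 DMSO and 1 treated sample a day.

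The count of genes changed on the mean over days (2415) was 143 with only the DMSO libraries numbered 1, 153 with those numbered 2, 126 with each pair summed, and 0 with no day term (131 at an unadjusted p under 0.05). These settings also change the error. With 1 DMSO and 1 treated sample a day, its 4 residual degrees of freedom come from how the treatment difference varies between days. In the main fit, with 9, the spread within the DMSO pairs enters too. With no day term the difference between days stays in the error. Why the counts were lower was not tested. Leaving out each library in turn gave 1327 to 3036 genes, and DESeq2, limma, other scalings, other filters, the 20-library fit and D9 to D28 alone gave 1628 to 2512. The difference between days (6153 genes) was called for 2915 by DESeq2 and 1294 in the fit of all 22 libraries, and for 4154 to 6490 without each library. The cause was not tested. For the difference between doses (0 genes), DESeq2 called 12, the 10 TBBPA libraries alone 16, and leaving out each library 0 to 7.

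Of 108 named genes 86 passed on the mean. With the pairs summed 37 of these stayed past the threshold and 49 did not, all in the same direction. DESeq2 lost 4 of 85, limma on log2(FPKM + 1) 9 of 85, and with no day term all 86 were lost. In 1290 fits of a named gene without 1 library, 17 lost the call in the same direction and 1 lost it with the sign turned: Lyz2 ranged from -1.56 (without the 100 nM library of D18) to 0.0342 (without that of D28). Over 5 scalings or settings the median change of all genes stayed within 0.0145 of 0 on the log2 scale. Counts near 0 limit the muscle, globin and macrophage genes at early days.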

Other observations

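Some lists that the comparison above left aside hold single genes a biologist may want to see; they were chosen after their values were seen. Of 19 primed epiblast and streak genes 3 rose and 1 fell, with 0 passing with the DMSO pairs summed. Pou3f1, a POU factor of epiblast and neural cells, was at 170 against 129 and 154 CPM at D4 and 27.8 against 14.1 and 15.2 at D12, a log2 change of 0.52 ± 0.08. Fgf5, an epiblast growth factor, fell by 0.36 ± 0.09 and was at 12.5 against 17.4 and 18.8 CPM at D9. Of 18 germ cell genes 4 fell and none rose, and 1 fell with the pairs summed, Tfap2c. With D9 to D28 alone 1 fell, and the list's median difference was -0.65 at D4 and 0.06 at D9. Dppa3, of primordial germ cells and naive ES cells, was at 5.69 against 18.8 and 18.1 CPM at D4 and at 9.08 against 8.01 and 8.86 at D9.

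Of 17 cartilage and bone genes 4 fell and 1 rose, and 1 fell with the pairs summed, Spp1. Spp1, osteopontin, was at 62.8 against 95.5 and 92.7 CPM at D28 and lower than both controls on each day (-0.48 ± 0.08). Sox9, a factor of cartilage that is also active in neural progenitors, was at 60.2 against 48.1 and 45.1 CPM at D18 (0.23 ± 0.06). Tal1, a factor of blood and of some midbrain and spinal neurons, was at 2.55 against 4.14 and 3.53 CPM at D9, when embryonic globins appear, and at 28.7 against 9.27 and 12.2 at D18.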
